A study of Gallus gallus with 20 samples.

Results

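Collagen, matrix and stellate cell genes were followed in the liver of laying hens of Guangxi Ma, a local chicken breed of China. The set holds 41 of the 21749 genes in the table: genes listed for matrix proteins, their crosslinking enzymes, matrix turnover and stellate cells, each with a transcript abundance above 0 in at least 4 libraries. By role they are 5 fibrillar collagens, 5 microfibrillar and fibril-associated collagens, 8 basement membrane genes, 6 glycoproteins and proteoglycans, 5 crosslinkers, 3 turnover genes, 7 stellate and mural cell genes and 2 ligands. Liver RNA was sequenced in 20 libraries, 4 in each of 5 groups: hens of week 32, high and low layers of week 50, and high and low layers of week 72. The labels name no genotype and no treatment, and 1 breed and 1 organ are common to all groups. The characteristics give high laying for week 32 but the design text names none, and this group is therefore called by its age. Separate hens or pools behind the 4 libraries of a group are not named in the labels, so the p-values reflect the spread of these samples alone, part or all of which may be technical.

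Fibrillar collagens form the tensile fibres of the extracellular matrix, whereas basement membrane collagens and laminins form thin sheets under epithelia, endothelia and muscle. Lysyl oxidases oxidise lysines in collagen and elastin and so join neighbouring chains. In the liver of mammals most fibrillar collagen is made by hepatic stellate cells and portal fibroblasts, which turn into contractile myofibroblasts in injury and build the scar of fibrosis.

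Values are TPM, the abundance of a transcript per length and relative to the whole library, so levels can be compared between genes. In the bulk RNA of a whole organ, fewer cells of a type and less RNA per cell cannot be told apart. Differences were tested with limma on log2(TPM + 1) in 12808 genes, those reaching 1 TPM in 4 or more libraries, and 36 members were among them. LAMA4, BGN, LOXL1, PDGFRA and TGFB2 were below that minimum and were not tested. Each library listed between 764047 and 852815 TPM in all, and the members held 0.116% to 0.270% of it. The 3 libraries with the lowest median Spearman correlation to the rest (0.923 to 0.928) were replicate 1 of week 50 high, 3 of week 50 low and 2 of week 72 low layers. None of the hepatocyte or stellate cell markers was at 0 in all libraries. Of 13 stellate cell markers, 5 of them members, 11 were above 0 in each library, NGFR was at 0 in 4 libraries and CYGB in 3.

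No member passed the test between groups. Limma called 0 of 36 members at an adjusted p under 0.05 in each of 10 comparisons. Of all 12808 genes tested it called 0% in 6 of these comparisons. It called 0.00781% in the test over the 5 groups, in the comparison of laying classes at week 72 and in that of week 72 high layers with week 32. The share was 0.0390% for week 72 against week 50 in low layers. In the test over the 5 groups 7 members had an unadjusted p under 0.05, against 8.88% of all genes. These were LOXL3, PCDH18, NID1, LOX, COL4A2, PDGFRB and COL12A1, and the smallest adjusted p was 0.25, for LOXL3. The count was 12 without week 72 high replicate 3.

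The fibrillar collagens were low in these livers and varied together between libraries. Medians over 20 libraries ran from 3.26 TPM for COL1A1 to 8.20 TPM for COL3A1, and all 5 had their highest group mean at week 32. COL1A1, the alpha 1 chain of type I collagen (chromosome 27, 2738203 to 2755475, GRCg7b), had 4.27, 12.03, 3.26 and 3.30 TPM in week 32 replicates 1 to 4. It had 3.75, 2.68, 3.49 and 3.15 TPM in week 50 high layers and 3.26, 2.21, 4.31 and 3.88 TPM in week 50 low layers. The week 72 high libraries had 2.28, 1.13, 11.2 and 1.49 TPM and the week 72 low libraries 1.75, 1.87, 6.67 and 3.22 TPM. Week 32 replicate 2, week 72 high replicate 3 and week 72 low replicate 3 stood above all the others, and the 5 groups overlapped. The remaining 17 libraries lay between 1.13 and 4.31 TPM.

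COL1A2 (chromosome 2, 23476066 to 23515037), the alpha 2 chain that joins COL1A1 in the type I trimer, followed the same libraries. Its week 32 values were 6.39, 15.6, 7.41 and 6.66 TPM, with 5.61, 6.26, 7.04 and 5.20 TPM in week 50 high and 6.16, 4.25, 6.38 and 5.998 TPM in week 50 low layers. At week 72 it had 5.13, 2.78, 13.2 and 4.24 TPM in high and 3.94, 3.35, 11.8 and 5.23 TPM in low layers. The same 3 libraries were the highest 3. Week 32 lay above week 50 low layers by a small gap, 6.39 against 6.38 TPM, and overlapped with the other groups. COL3A1 (chromosome 7, 671206 to 805182), the single chain of type III collagen, had 11.6, 24.9, 10.3 and 10.5 TPM at week 32, 5.23, 9.16, 13.8 and 8.11 TPM in week 50 high and 8.28, 5.12, 6.94 and 8.35 TPM in week 50 low layers. In week 72 it had 7.07, 3.03, 17.7 and 6.11 TPM in high and 3.90, 5.39, 16.2 and 5.15 TPM in low layers. All week 32 libraries lay above all week 50 low libraries, and the other groups overlapped with week 32. Week 72 high replicate 2 was the lowest of the 20 libraries for COL1A1, COL1A2 and COL3A1.

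Type V collagen starts and limits the width of type I fibrils, and its chains varied less. COL5A1 averaged 4.699 ± 0.461 TPM at week 32, 3.84 ± 0.900 and 3.34 ± 0.337 TPM in week 50 high and low layers, and 3.34 ± 1.37 and 3.60 ± 0.801 TPM in week 72 high and low layers (SD, n = 4). COL5A2 averaged 4.93 ± 0.819 TPM at week 32, 4.54 ± 1.38 and 3.97 ± 1.01 TPM in week 50 high and low layers, and 3.88 ± 1.26 and 3.79 ± 1.03 TPM in week 72 high and low layers. For COL5A1 all week 32 libraries (4.26 to 5.12 TPM) lay above all week 50 low libraries (2.92 to 3.69 TPM), and for COL5A2 no group stood apart.

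**Figure D1:**
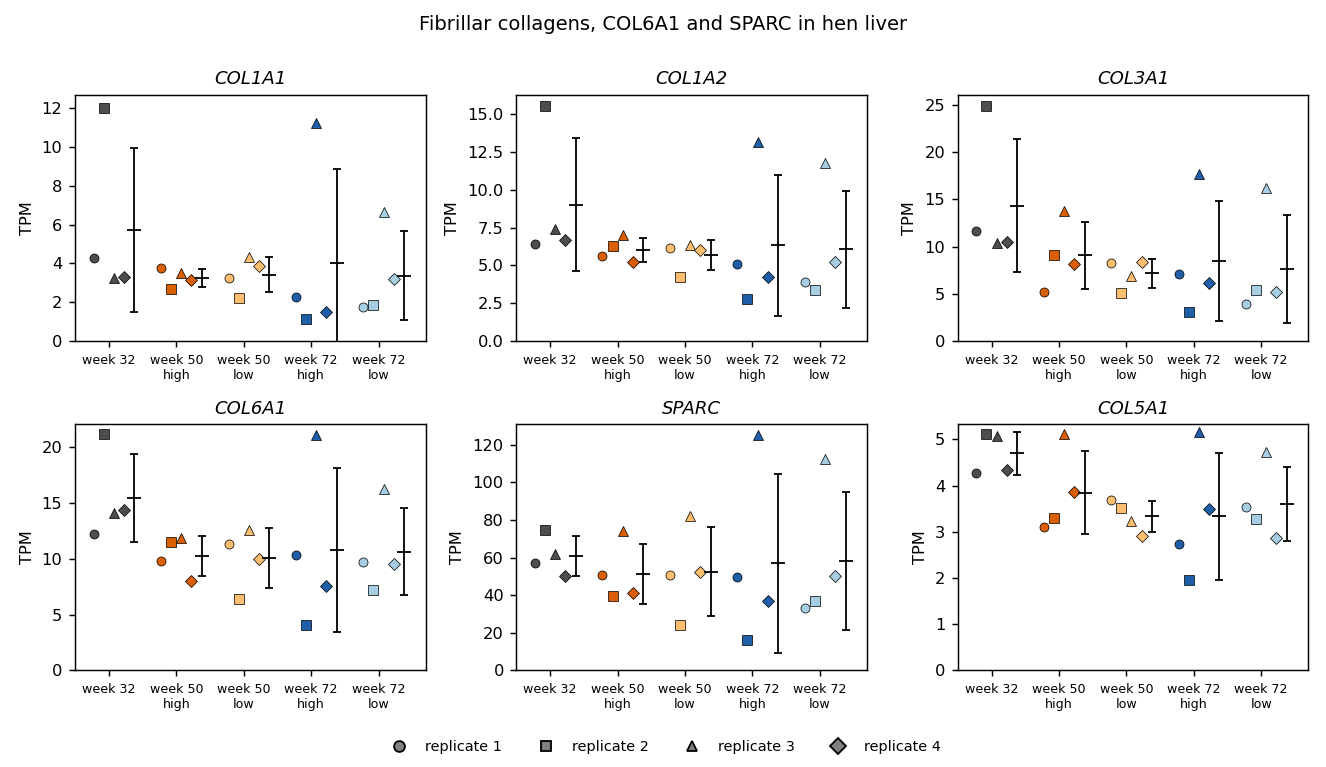
Level in TPM (y axis) of 4 fibrillar collagen genes, COL6A1 and SPARC in each of 20 libraries (points, shaped by replicate number) in the 5 groups (x axis); bars give the group mean and SD, with lower arms that pass below 0 cut at the axis. Week 32 replicate 2, week 72 high replicate 3 and week 72 low replicate 3 are the 3 highest in COL1A1, COL1A2 and COL6A1 and stand high in COL3A1, and no group of COL1A1 stands apart.

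Type VI collagen forms beaded microfibrils around cells from 3 chains, and 2 of the 3 followed type I collagen. COL6A1 averaged 15.5 ± 3.92 TPM at week 32, 10.3 ± 1.79 and 10.1 ± 2.66 TPM in week 50 high and low layers, and 10.8 ± 7.36 and 10.7 ± 3.88 TPM in week 72 high and low layers. COL6A3 averaged 2.45 ± 1.14 TPM at week 32, 1.38 ± 0.505 and 1.40 ± 0.618 TPM in week 50 high and low layers, and 1.66 ± 1.46 and 1.35 ± 0.730 TPM in week 72 high and low layers. Both were highest in week 32 replicate 2 and lowest in week 72 high replicate 2. COL6A1 at week 32 (12.2 to 21.2 TPM) lay above all week 50 high libraries (7.98 to 11.8 TPM) and overlapped with the other groups, as COL6A3 did with all groups. COL6A2 instead ranged from 8.98 TPM to 93.6 TPM, both in week 50 low layers. Its group means were 35.7 ± 18.7 TPM at week 32, 17.3 ± 3.89 and 41.9 ± 37.0 TPM in week 50 high and low layers, and 18.8 ± 5.51 and 43.4 ± 30.9 TPM in week 72 high and low layers. COL6A2 was high in week 50 low replicate 3 and week 72 low replicate 4, at 93.6 and 84.5 TPM, where COL6A1 was at 12.6 and 9.54 TPM. COL6A1 and COL6A2 lie 20298 bp apart on chromosome 7, with COL18A1 58192 bp from COL6A1.

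COL12A1 and COL14A1 encode collagens that sit on the surface of fibrils and link them. COL12A1 averaged 3.65 ± 0.858 TPM at week 32, 1.497 ± 0.580 and 1.72 ± 0.458 TPM in week 50 high and low layers, and 1.76 ± 1.15 and 1.65 ± 1.08 TPM in week 72 high and low layers. All 4 week 32 libraries (2.85 to 4.69 TPM) lay above all 8 week 50 libraries, and both week 72 groups overlapped with week 32. COL14A1 averaged 5.29 ± 0.982 TPM at week 32, 4.88 ± 0.326 and 3.58 ± 1.06 TPM in week 50 high and low layers, and 3.75 ± 1.92 and 3.04 ± 0.915 TPM in week 72 high and low layers. Its week 32 libraries (4.54 to 6.69 TPM) lay above all week 72 low libraries (1.81 to 4.03 TPM) and overlapped with the other groups.

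Of 8 basement membrane genes, 5 had a higher median than any fibrillar collagen, and NID1 split the libraries into a high and a low set. Type IV collagen forms the network of the membrane, and its COL4A1 and COL4A2 chains are divergent neighbours in mammals. The positions of COL4A1 (chromosome 1, 138807413 to 138920608) and COL4A2 (chromosome 1, 138919708 to 139061817) overlap by 901 bp in GRCg7b. No source used here says whether counting used strand, so reads from the overlap cannot be told apart. COL4A1 had 18.99, 24.3, 19.3 and 24.7 TPM at week 32, 10.8, 14.9, 22.8 and 15.1 TPM in week 50 high and 14.9, 11.2, 14.5 and 12.4 TPM in week 50 low layers. At week 72 it had 14.8, 7.77, 22.0 and 13.0 TPM in high and 17.5, 12.9, 20.6 and 18.7 TPM in low layers. Week 32 lay above week 50 low without overlap and overlapped with the other 3 groups.

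COL4A2 had values close together at week 32, at 12.3, 13.5, 14.0 and 14.9 TPM, with 9.94, 10.002, 12.8 and 8.58 TPM in week 50 high and 8.07, 6.49, 9.92 and 6.18 TPM in week 50 low layers. The week 72 values were 7.47, 4.41, 12.5 and 7.09 TPM in high and 10.6, 7.96, 11.7 and 8.93 TPM in low layers. All week 32 libraries lay above all libraries of the week 50 low and the week 72 low groups. In week 50 high and week 72 high layers only replicate 3 reached into the week 32 range.

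NID1 encodes nidogen 1, which bridges the laminin and type IV collagen networks (chromosome 3, 37527469 to 37564861). It had 9.83, 42.9, 53.1 and 25.5 TPM at week 32, 83.5, 72.3, 48.9 and 57.9 TPM in week 50 high and 55.2, 46.2, 42.2 and 57.0 TPM in week 50 low layers. At week 72 it had 76.3, 5.62, 8.57 and 7.53 TPM in high and 25.9, 9.27, 9.35 and 8.24 TPM in low layers. In all, 7 libraries lay between 5.62 and 9.83 TPM and 13 between 25.5 and 83.5 TPM, with none between. All 8 week 50 libraries were in the upper set, whereas 6 of 8 week 72 libraries and 1 of 4 week 32 libraries were in the lower set. The cut at 20 TPM was chosen after the values were seen. NID2, the related nidogen 2, showed no such gap and averaged 7.78 ± 1.05 TPM at week 32, 6.91 ± 1.13 and 6.80 ± 1.41 TPM in week 50 high and low layers, and 6.83 ± 2.28 and 7.73 ± 1.22 TPM in week 72 high and low layers.

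Laminins are the other network of the membrane. LAMC1, the gamma 1 chain, averaged 18.4 ± 2.82 TPM at week 32, 18.7 ± 3.88 and 16.5 ± 2.26 TPM in week 50 high and low layers, and 15.2 ± 3.03 and 14.2 ± 4.14 TPM in week 72 high and low layers. LAMB1, the beta 1 chain, averaged 4.17 ± 0.257 TPM at week 32, 3.91 ± 0.443 and 3.13 ± 0.578 TPM in week 50 high and low layers, and 3.39 ± 0.564 and 3.85 ± 0.785 TPM in week 72 high and low layers. For both chains each group overlapped with each other group, except that week 32 LAMB1 (3.92 to 4.50 TPM) lay above week 50 low (2.29 to 3.60 TPM). The alpha 4 chain LAMA4, at a median of 0.456 TPM, was not tested, and its group means were 0.536 ± 0.213, 0.468 ± 0.196, 0.391 ± 0.134, 0.427 ± 0.206 and 0.627 ± 0.509 TPM in the order of groups used above. COL18A1, whose C-terminal fragment is endostatin, averaged 24.9 ± 9.82 TPM at week 32, 28.5 ± 7.53 and 36.6 ± 25.1 TPM in week 50 high and low layers, and 27.1 ± 9.53 and 28.7 ± 18.8 TPM in week 72 high and low layers, with 73.7 TPM in week 50 low replicate 3.

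**Figure D2:**
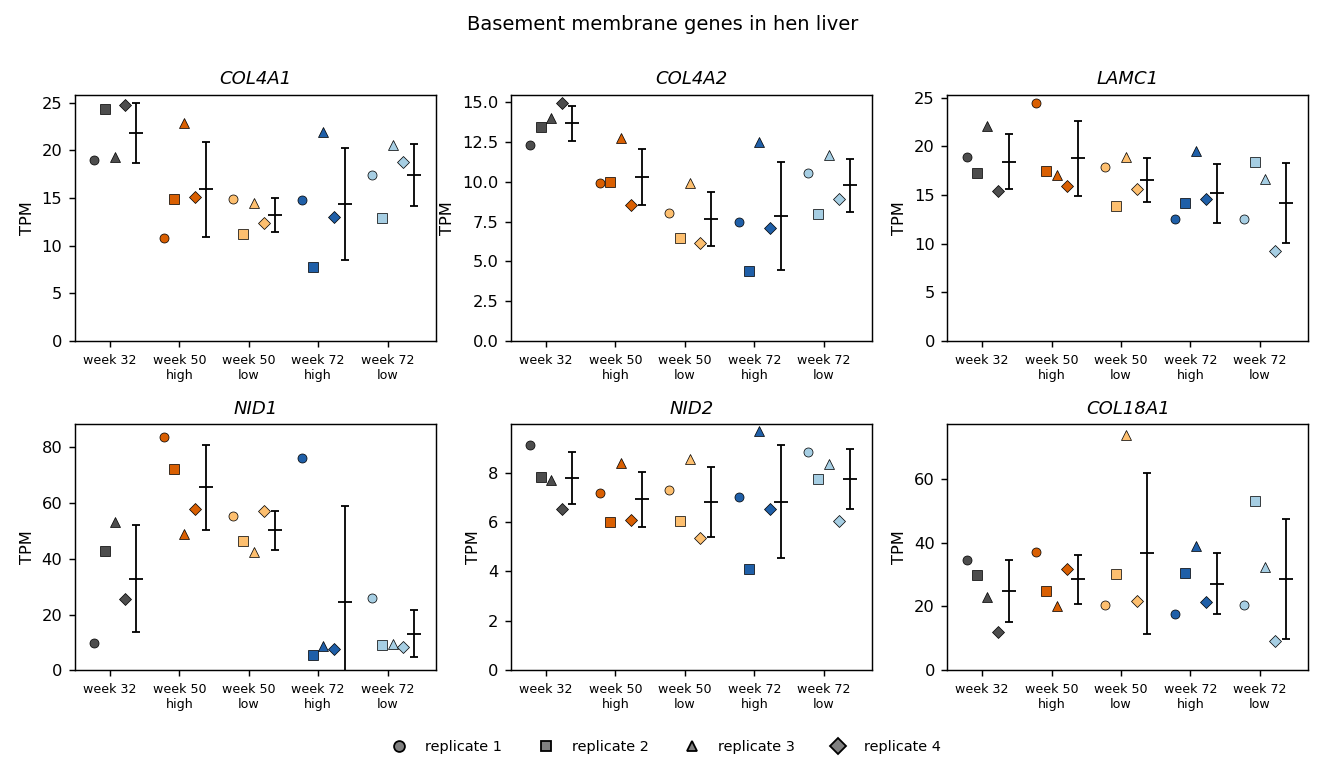
Level in TPM (y axis) of 6 basement membrane genes in 20 libraries (points, shaped by replicate number) in the 5 groups (x axis); bars give the group mean and SD, with lower arms that pass below 0 cut at the axis. NID1 lies at 5.62 to 9.83 TPM in 7 libraries and at 25.5 TPM or more in 13, and COL4A2 at week 32 lies above all low layers of either later age.

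Glycoproteins held the most abundant matrix transcripts apart from the inhibitors of proteases. FN1 encodes fibronectin, which hepatocytes secrete into plasma and mesenchymal cells lay down in matrix, and had a median of 195 TPM. It averaged 237 ± 64.0 TPM at week 32, 176 ± 36.1 and 184 ± 63.1 TPM in week 50 high and low layers, and 133 ± 46.0 and 261 ± 110.3 TPM in week 72 high and low layers. All week 72 high libraries (83.9 to 189 TPM) lay below all week 32 libraries (196 to 330.4 TPM), and overlapped with the week 72 low libraries (136 to 394 TPM). SPARC, a collagen-binding matricellular protein, averaged 60.9 ± 10.5 TPM at week 32, 51.4 ± 16.0 and 52.4 ± 23.7 TPM in week 50 high and low layers, and 56.9 ± 47.4 and 58.2 ± 36.7 TPM in week 72 high and low layers, and was highest in week 72 high replicate 3 (125 TPM) and week 72 low replicate 3 (112 TPM). FBN1, the microfibril protein fibrillin 1, averaged 3.44 ± 0.301 TPM at week 32, 2.90 ± 0.957 and 2.5998 ± 1.14 TPM in week 50 high and low layers, and 2.26 ± 1.18 and 2.51 ± 1.07 TPM in week 72 high and low layers.

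Decorin and lumican are small leucine-rich proteoglycans that bind collagen fibrils, and their genes lie 19642 bp apart on chromosome 1. DCN (chromosome 1, 44073171 to 44112514) had 121, 91.4, 81.6 and 101 TPM at week 32, 37.8, 131, 157 and 113 TPM in week 50 high and 100.3, 84.6, 55.0 and 69.9 TPM in week 50 low layers. At week 72 DCN had 88.8, 34.5, 97.7 and 94.2 TPM in high and 133, 37.8, 87.9 and 83.1 TPM in low layers. Each group of 4 overlapped with the other groups, and 3 libraries were below 40 TPM: replicate 1 of week 50 high, and replicate 2 of both week 72 groups. LUM averaged 6.45 ± 2.45 TPM at week 32, 7.60 ± 5.08 and 7.96 ± 4.42 TPM in week 50 high and low layers, and 4.50 ± 2.25 and 5.10 ± 3.11 TPM in week 72 high and low layers. BGN, biglycan, was at a median of 0.0945 TPM and was listed at 0 in 4 libraries, and its group means were 0.112 ± 0.0624, 0.0725 ± 0.0258, 0.0596 ± 0.0457, 0.0763 ± 0.0982 and 0.257 ± 0.330 TPM in the same order of groups as above.

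Among the crosslinkers, LOX and LOXL3 both had their highest group mean in week 72 low layers. LOX, lysyl oxidase (chromosome Z, 84994359 to 85007177), had 2.50, 2.42, 8.15 and 8.99 TPM at week 32, 1.37, 0.9998, 1.20 and 1.99 TPM in week 50 high and 1.27, 2.99, 1.502 and 0.819 TPM in week 50 low layers. At week 72 it had 0.783, 1.06, 1.82 and 1.17 TPM in high and 3.20, 1.71, 8.22 and 12.4 TPM in low layers. Only 4 libraries exceeded 4 TPM, replicates 3 and 4 of week 32 and of week 72 low. Week 32 lay above week 50 high and week 72 high without overlap, while week 72 low overlapped with each other group. LOXL2, a lysyl oxidase homologue that acts on type IV collagen (chromosome 22, 1260728 to 1299046), had 1.504, 2.97, 4.06 and 5.01 TPM at week 32, 1.34, 1.51, 3.08 and 1.02 TPM in week 50 high and 1.57, 2.05, 1.32 and 1.83 TPM in week 50 low layers. In week 72 LOXL2 had 1.51, 0.615, 2.96 and 1.70 TPM in high and 2.27, 0.723, 2.0002 and 1.52 TPM in low layers. Its groups all overlapped.

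LOXL3, a further lysyl oxidase homologue (chromosome 4, 90747599 to 90761274), had 1.72, 2.81, 1.81 and 2.16 TPM at week 32, 1.97, 1.36, 1.67 and 2.89 TPM in week 50 high and 1.92, 1.56, 1.70 and 1.24 TPM in week 50 low layers. It had 3.45, 2.22, 2.87 and 1.98 TPM in week 72 high and 2.91, 4.93, 5.35 and 3.84 TPM in week 72 low layers. The week 72 low libraries lay above all libraries of week 32 and week 50 and overlapped with week 72 high layers. LOXL4 averaged 0.921 ± 0.578 TPM at week 32, 0.651 ± 0.509 and 1.46 ± 1.33 TPM in week 50 high and low layers, and 0.873 ± 0.788 and 0.618 ± 0.440 TPM in week 72 high and low layers and was listed at 0 in week 50 high replicate 3. LOXL1 was not tested, and its group means were 0.6998 ± 0.130, 0.431 ± 0.190, 0.427 ± 0.292, 0.464 ± 0.273 and 0.694 ± 0.404 TPM in the same order of groups. Thus all 5 crosslinkers had medians between 0.540 and 2.07 TPM.

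**Figure D3:**
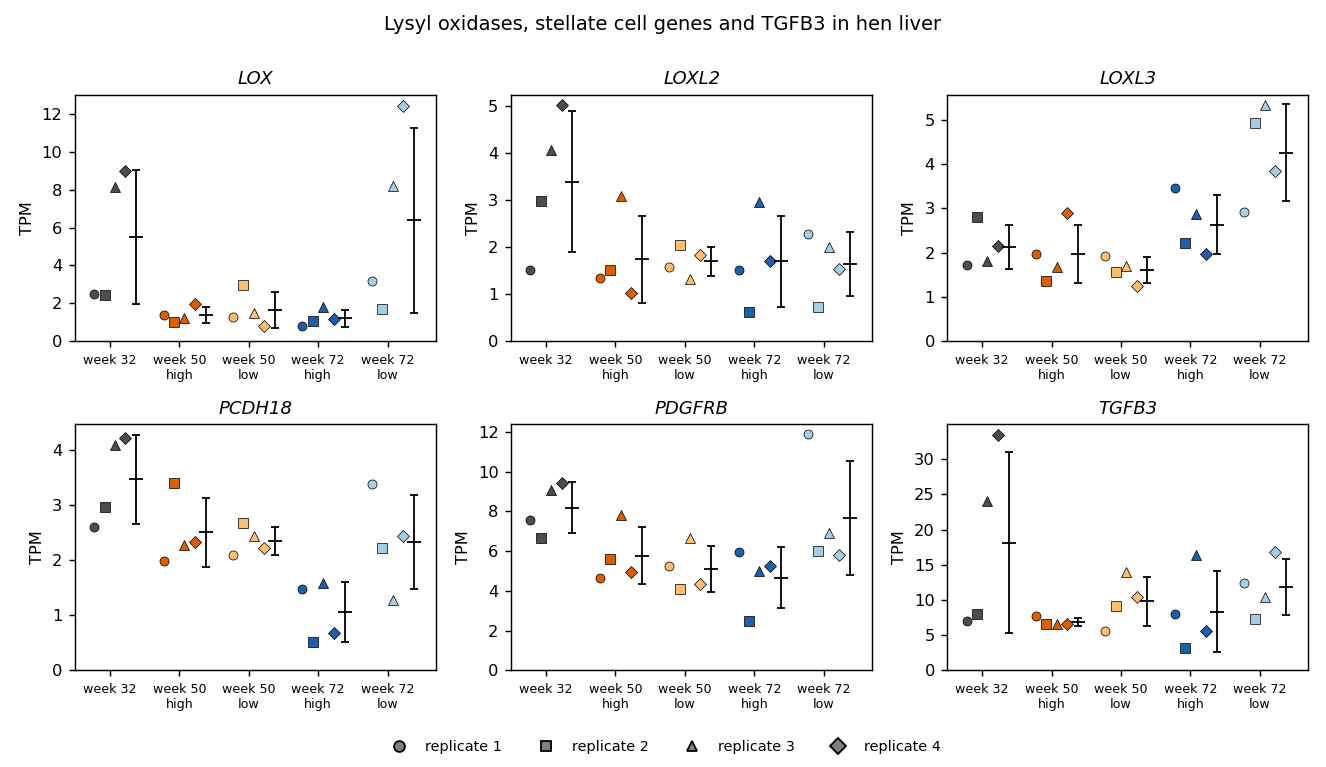
Level in TPM (y axis) of LOX, LOXL2, LOXL3, PCDH18, PDGFRB and TGFB3 in 20 libraries (points, shaped by replicate number) in the 5 groups (x axis); bars give the group mean and SD. LOX exceeds 4 TPM in 4 libraries, LOXL3 in week 72 low layers lies above the week 32 and week 50 libraries, and PCDH18 in week 72 high layers lies below them.

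Among the turnover genes TIMP2 had the highest median of all members, whereas TIMP3 ranked 3 and MMP2 ranked 26. TIMP2, an inhibitor of matrix metalloproteinases that also helps activate MMP2, had a median of 663 TPM and made up 47.0% of the summed member level in the median library. It ranged from 268 to 1331 TPM and averaged 768 ± 198 TPM at week 32, 725 ± 443 and 711 ± 297 TPM in week 50 high and low layers, and 836 ± 360.2 and 489.8 ± 280.0 TPM in week 72 high and low layers. TIMP3, the matrix-bound inhibitor, averaged 133 ± 46.0 TPM at week 32, 123 ± 41.4 and 151 ± 52.9 TPM in week 50 high and low layers, and 92.4 ± 32.8 and 141 ± 67.5 TPM in week 72 high and low layers. MMP2, a gelatinase of mesenchymal cells, averaged 3.88 ± 0.986 TPM at week 32, 3.84 ± 2.33 and 3.76 ± 0.963 TPM in week 50 high and low layers, and 5.11 ± 3.08 and 6.68 ± 5.54 TPM in week 72 high and low layers, with 14.8 TPM in week 72 low replicate 3. No group of TIMP2, TIMP3 or MMP2 stood apart from week 32.

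In the stellate and mural cell genes, PCDH18, PDGFRB, TAGLN, DES and PDGFRA had their lowest group mean in week 72 high layers. ACTA2 had its lowest mean in week 72 low and RELN in week 50 low layers. PDGFRB encodes the platelet-derived growth factor receptor beta of pericytes and stellate cells (chromosome 13, 12851433 to 12876615). It had 7.58, 6.67, 9.06 and 9.45 TPM at week 32, 4.67, 5.59, 7.83 and 4.97 TPM in week 50 high and 5.27, 4.08, 6.65 and 4.37 TPM in week 50 low layers. At week 72 it had 5.96, 2.48, 4.98 and 5.26 TPM in high and 11.9, 5.997, 6.92 and 5.81 TPM in low layers. Week 32 lay above week 50 low and week 72 high layers, with 6.67 TPM as its lowest and 6.65 TPM as the highest week 50 low value. PCDH18, a protocadherin found in stellate cells of mammals (chromosome 4, 28232646 to 28242483), had 2.602, 2.97, 4.08 and 4.22 TPM at week 32, 1.99, 3.404, 2.28 and 2.33 TPM in week 50 high and 2.09, 2.67, 2.43 and 2.22 TPM in week 50 low layers. At week 72 PCDH18 had 1.48, 0.509, 1.58 and 0.673 TPM in high and 3.38, 2.23, 1.28 and 2.43 TPM in low layers. The week 72 high libraries lay below all libraries of week 32 and week 50 and overlapped with week 72 low layers.

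ACTA2 encodes smooth muscle alpha actin, which marks vessel walls and activated stellate cells (chromosome 6, 19993995 to 20050197). Its week 32 values were 33.2, 48.6, 41.5 and 77.5 TPM, with 24.6, 48.6, 45.0 and 38.9 TPM in week 50 high and 40.5, 45.6, 33.6 and 41.6 TPM in week 50 low layers. At week 72 it had 25.5, 28.5, 54.1 and 19.9 TPM in high and 20.1, 9.97, 28.6 and 61.1 TPM in low layers. The groups overlapped, and the lowest library was week 72 low replicate 2. TAGLN, the actin-binding transgelin, averaged 10.8 ± 4.19 TPM at week 32, 9.15 ± 2.51 and 13.4 ± 4.66 TPM in week 50 high and low layers, and 6.21 ± 3.04 and 10.1 ± 5.82 TPM in week 72 high and low layers. DES, the muscle intermediate filament desmin, averaged 14.9 ± 7.59 TPM at week 32, 10.1 ± 1.01 and 13.0 ± 5.72 TPM in week 50 high and low layers, and 9.91 ± 3.88 and 13.2 ± 3.73 TPM in week 72 high and low layers. Groups of TAGLN overlapped with week 32, and so did those of DES. RELN, a secreted glycoprotein that marks stellate cells in mammals, averaged 5.68 ± 0.692 TPM at week 32, 4.68 ± 0.779 and 3.80 ± 1.12 TPM in week 50 high and low layers, and 5.14 ± 1.04 and 6.33 ± 1.85 TPM in week 72 high and low layers. Its week 32 libraries (5.20 to 6.71 TPM) lay above all week 50 low libraries (2.18 to 4.69 TPM). PDGFRA, the alpha receptor, was not tested at a median of 0.313 TPM, and its group means were 0.444 ± 0.160, 0.347 ± 0.183, 0.305 ± 0.104, 0.298 ± 0.175 and 0.306 ± 0.265 TPM in the same order of groups.

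TGFB3 and TGFB2 encode ligands of the transforming growth factor beta family, which drives matrix production in fibroblasts. TGFB3 averaged 18.1 ± 12.8 TPM at week 32, 6.87 ± 0.553 and 9.80 ± 3.49 TPM in week 50 high and low layers, and 8.34 ± 5.74 and 11.8 ± 3.99 TPM in week 72 high and low layers. It was high in week 32 replicates 3 and 4, at 24.1 and 33.4 TPM, the same 2 week 32 libraries that were high in LOX. TGFB2 was not tested, and its group means were 0.399 ± 0.116, 0.464 ± 0.220, 0.495 ± 0.107, 0.396 ± 0.333 and 0.354 ± 0.163 TPM in the same order of groups.

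High and low layers were then compared at each age, the contrast that the series title names. At week 50, 0 members had an unadjusted p under 0.05 in limma, against 1.99% of all genes as higher and 0.976% as lower. The median log2 difference of the members was 0.04 and that of all genes 0.05. COL1A1 differed by -0.03 ± 0.46, COL3A1 by 0.25 ± 0.43 and COL4A2 by 0.39 ± 0.23 (SE, 4 libraries per group), and none of them passed. Leaving out week 50 low replicate 3 gave 2 members under 0.05.

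At week 72, 0 members were higher in high layers at an unadjusted p under 0.05 and 5 were lower, against 3.65% and 1.62% of all genes, and none was called. LOX differed by -1.49 ± 0.43 (adjusted p = 0.546), PCDH18 by -0.69 ± 0.22 (0.672) and FN1 by -0.93 ± 0.33 (0.762). LOXL3 differed by -0.53 ± 0.20 and PDGFRB by -0.61 ± 0.24, with limma adjusted p = 0.871 and 0.893. The 5 are a crosslinking enzyme and its homologue, a plasma and matrix glycoprotein and 2 membrane proteins of stellate cells. The fibrillar collagens were not among them: COL1A1 differed by -0.07 ± 0.46, COL1A2 by 0.0022 ± 0.36 and COL3A1 by 0.10 ± 0.43. Class medians were 0.00 for fibrillar collagens, -0.14 for basement membrane genes and -0.26 for crosslinkers, beside 0.03 for all genes. Over the alternatives the fibrillar median ran from -0.31 to 0.25, so it has no set sign, the basement membrane median from -0.28 to -0.0052 and the crosslinker median from -1.49 to -0.12. Leaving out replicate 2 or 4 of week 72 high layers or replicate 1 of the low layers gave 3 members in place of 5, and leaving out week 72 high replicate 3 gave 9.

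Summed stellate cell markers were 27.2 to 71.0 TPM in week 72 high and 46.3 to 91.2 TPM in week 72 low layers, and 8 of the 10 tested were below 0 in the week 72 laying difference. PDGFRB, DES, RELN and PCDH18 are among these 10 and are members themselves, each below 0. The list is therefore not independent of the members. Its highest medians over the libraries were those of RGS5 and DES, at 19.98 and 10.61 TPM. Endothelial markers were 135 to 204 TPM against 163 to 189 TPM, with 10 of 12 below 0. Macrophage markers lay below 0 in 9 of 10, hepatocyte markers in 7 of 10 and erythroid markers in 3 of 4. Smooth muscle markers did in 5 of 7, with ACTA2, TAGLN and DES of them members. The counts were 3 of 6 for cholangiocyte, 1 of 3 for B or plasma cell, 1 of 4 for adipocyte and 0 of 6 for T or NK cell markers. Of all genes 44.1% lay below 0. The part of these markers in the result was not tested.

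A test of the change of the laying difference took week 72 minus week 50. Again 0 members were higher and 5 lower at an unadjusted p under 0.05, against 1.23% and 1.15% of all genes, and 0 were called. LOXL3 (-0.70 ± 0.29), PCDH18 (-0.74 ± 0.32), COL4A2 (-0.74 ± 0.32), LOX (-1.39 ± 0.61) and PDGFRB (-0.75 ± 0.34) made up the 5, with limma adjusted p = 1 for each. This count was 0 without week 72 high replicate 2. Leaving out replicate 1 or 4 of week 50 low layers or replicate 1 of week 72 low layers gave 2. Leaving out replicate 2 or 3 of week 50 high, 2 of week 50 low, 4 of week 72 high or 3 of week 72 low layers gave 3.

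Each later group was compared with week 32. These 4 comparisons share the 4 week 32 libraries, so their values are given side by side. Week 32 had the highest mean of the 5 groups for 23 of 41 members, all 5 fibrillar collagens among them. The share of all genes with their highest mean at week 32 was not counted. LOXL1 and PDGFRA are among the 23 but were not tested. The COL1A1 mean of 5.72 TPM includes 12.03 TPM in replicate 2, with at most 4.27 TPM in the other libraries of week 32. In week 50 high layers 4 members were lower and 0 higher at an unadjusted p under 0.05, against 1.53% and 8.49% of all genes. They were COL12A1 (-0.91 ± 0.30, limma adjusted p = 0.364), LOX (-1.28 ± 0.43, 0.364), TGFB3 (-1.01 ± 0.44, 0.454) and LOXL2 (-0.66 ± 0.30, 0.481). The count was 2 without week 32 replicate 3 or 4 or week 50 high replicate 2 or 4, and 9 after each library was scaled by its median ratio to the others, which moved the median of all genes from 0.13 to -0.01.

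In week 50 low layers 7 members were lower and 0 higher, against 2.19% and 6.72% of all genes. COL4A2 differed by -0.78 ± 0.23 (limma adjusted p = 0.395), LOX by -1.18 ± 0.43 (0.457), COL4A1 by -0.68 ± 0.25 (0.459) and COL12A1 by -0.77 ± 0.30 (0.479). PDGFRB (-0.60 ± 0.24), RELN (-0.51 ± 0.22) and LOXL2 were the other 3. Without week 32 replicate 3 or 4 the count was 4.

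In week 72 high layers 11 members, 30.6% of the 36, were lower and 0 higher, against 2.30% and 2.92% of all genes. PCDH18 differed by -1.14 ± 0.22 with the smallest adjusted p = 0.273 in limma. COL4A2 (-0.80 ± 0.23), LOX (-1.40 ± 0.43), PDGFRB (-0.73 ± 0.24), COL12A1 (-0.83 ± 0.30) and FN1 (-0.86 ± 0.33) followed, with adjusted p from 0.8293 to 0.909. COL4A1, LOXL2, TGFB3, COL5A1 and TAGLN were the others. This count turned on single libraries: it was 5 without week 72 high replicate 2, 6 without week 32 replicate 4, 7 without week 32 replicate 3 or week 72 high replicate 4, and 20 without week 72 high replicate 3. Week 72 high replicate 2 was the lowest of all 20 libraries for 21 of 36 members, and week 72 high replicate 3 was among the 3 highest for 16. The same counts over all genes were not made.

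In week 72 low layers 5 members were lower and 1 higher, against 4.40% and 3.29% of all genes. LOXL3 was the higher one, at 0.74 ± 0.20 (limma adjusted p = 0.396). COL12A1 (-0.88 ± 0.30), COL14A1 (-0.66 ± 0.27), ACTA2 (-0.93 ± 0.40), LOXL2 (-0.71 ± 0.30) and COL3A1 (-0.92 ± 0.43) were lower, with adjusted p from 0.497 to 0.627. Of the lower members 2 were counted without week 32 replicate 2 or week 72 low replicate 4, 3 without week 32 replicate 4 or week 72 low replicate 2, and 9 without week 72 low replicate 3.

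Over all members tested, differences from week 32 lay below 0 for most of the 36, in 32, 30, 32 and 28 of them in high and low layers of week 50 and high and low layers of week 72, in that order. The shares of all genes below 0 were 30.8%, 37.7%, 43.3% and 49.7%. Member medians were -0.27, -0.36, -0.51 and -0.32, and medians of all genes 0.13, 0.09, 0.04 and 0.00. Leaving out single libraries gave 26 to 35 members below 0 over the 4 comparisons. All 5 fibrillar collagens were below 0 in each of the 4, with class medians of -0.43, -0.46, -0.55 and -0.55. Basement membrane medians were -0.08, -0.18, -0.27 and -0.32, with NID1 above 0 by 1.18 and 0.82 at week 50. Crosslinker medians were -0.44, -0.45, -0.39 and -0.07. COL1A1 differed by -0.49 ± 0.46, -0.46 ± 0.46, -0.64 ± 0.46 and -0.58 ± 0.46, and did not pass in any of them.

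**Figure D4:**
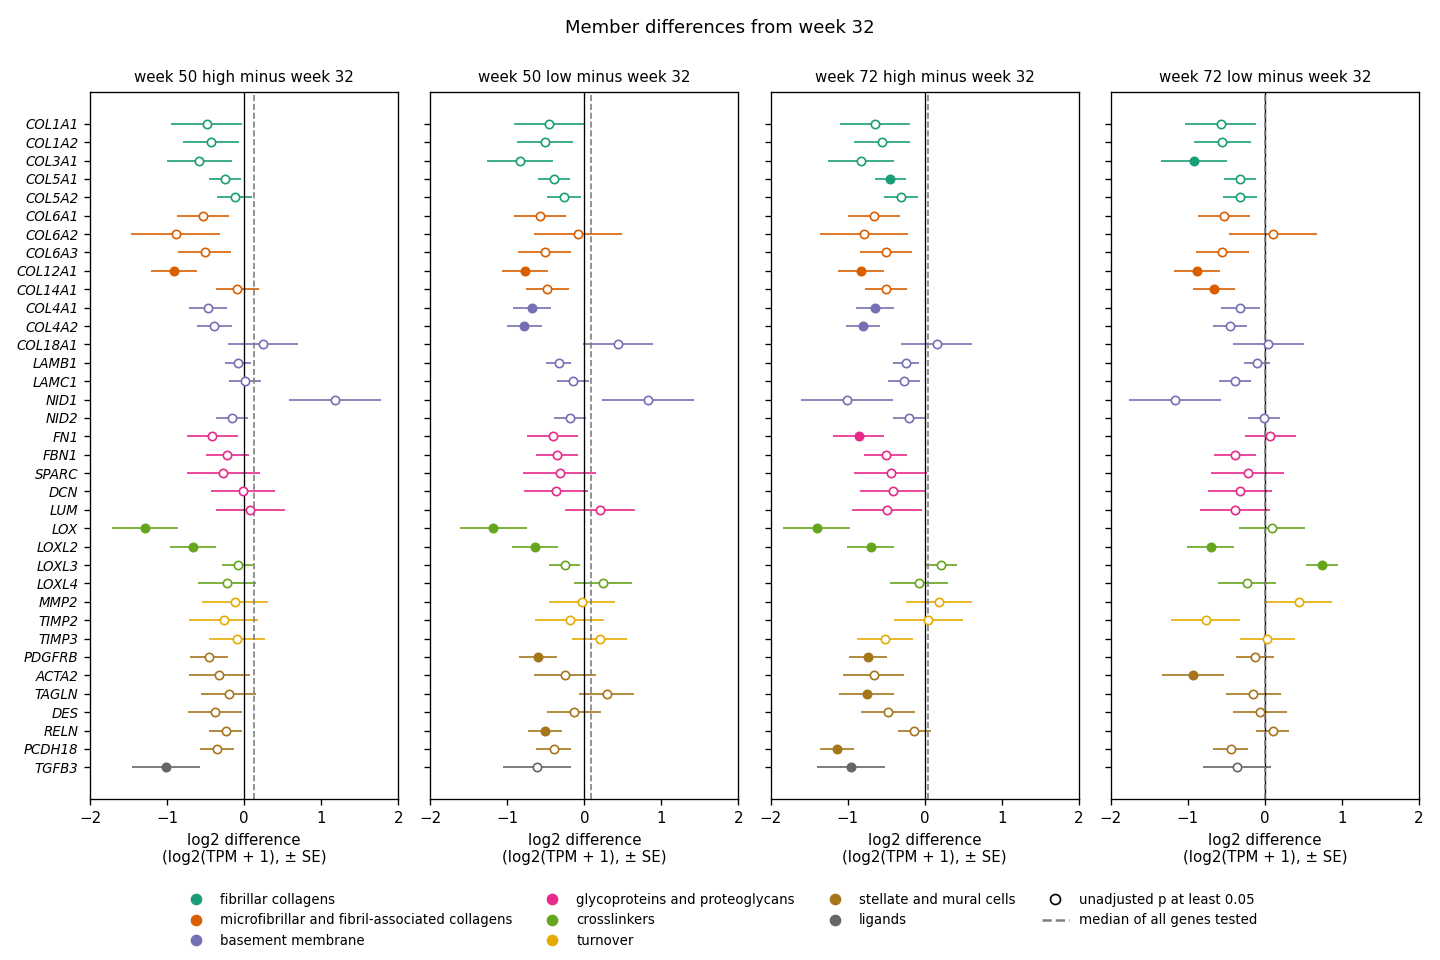
Log2 difference of 36 tested members (y axis) from week 32 in 4 later groups (panels), on log2(TPM + 1) with SE, coloured by role; filled points have an unadjusted p under 0.05 and the dashed line is the median of all genes tested. Most points lie below 0, 32, 30, 32 and 28 of 36 in panel order, and none passed after adjustment.

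Markers of other cells also differed between week 32 and later groups. Summed erythroid markers were 167 to 370.1 TPM at week 32, 665 to 947 TPM in week 72 high and 791 to 1505 TPM in week 72 low layers. T or NK cell markers were 56.4 to 71.3 TPM at week 32 and 120.2 to 194 TPM in week 50 high layers. Adipocyte markers were 41.9 to 114 TPM at week 32, 122 to 456 TPM in week 50 high and 133.9 to 192.3 TPM in week 72 high layers. In each of these cases the later groups given did not overlap with week 32. T or NK cell markers overlapped with week 32 elsewhere, at 45.6 to 231.5 TPM in week 50 low layers. They were at 57.25 to 141.6 and 45.2 to 110.2 TPM in week 72 high and low layers. Erythroid markers overlapped with week 32 in both week 50 groups, and adipocyte markers in week 50 low and week 72 low layers. The adipocyte sum came mostly from CIDEC, PLIN4 and PLIN1, with medians of 50.7, 46.8 and 19.6 TPM. ADIPOQ and FABP4 had medians of 0.654 and 0.872 TPM. Whether the adipocyte sum follows the amount of adipocytes was not tested. Stellate cell markers were 53.7 to 114 TPM at week 32, 48.5 to 92.6 and 42.6 to 61.9 TPM in week 50 high and low layers, and smooth muscle markers were 89.3 to 158 TPM at week 32 and 75.4 to 112 TPM in week 50 high layers. In week 72 high and low layers stellate cell markers were 27.2 to 71.0 and 46.3 to 91.2 TPM. RGS5 and DES had the highest medians of the stellate cell list, at 19.98 and 10.61 TPM, and RGS5 ranged from 7.005 to 59.9 TPM. PDGFRA, NGFR, LHX2 and CYGB had medians of 0.3134, 0.1723, 0.3425 and 0.6788 TPM. Whether the stellate cell sum follows the amount of stellate cells was not tested. Endothelial markers were 119 to 219 TPM at week 32, 99.6 to 189 and 107.5 to 163 TPM in week 50 high and low layers, and 135 to 204 and 163 to 189 TPM in week 72 high and low layers. Each of the 3 lists overlapped with week 32 in the groups given. In the same order of groups, differences from week 32 lay below 0 for 8, 9, 9 and 9 of 10 stellate cell markers tested, and for 10, 12, 9 and 5 of 12 endothelial markers. Macrophage markers lay below 0 in 2, 2, 4 and 2 of 10, and hepatocyte markers in 7, 6, 2 and 3 of 10. The tested stellate cell markers include the members PDGFRB, DES, RELN and PCDH18, and the smooth muscle markers include the members ACTA2, TAGLN and DES. These 2 lists are therefore not independent of the members. The part of any marker list in the result was not tested.

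The last comparison set week 72 against week 50 within a laying class, and NID1 and LOXL3 led it. In high layers 2 members were lower and 0 higher at an unadjusted p under 0.05, against 4.01% and 0.586% of all genes. NID1 differed by -2.19 ± 0.60 and PCDH18 by -0.79 ± 0.22, each with limma adjusted p = 0.881. NID1 was at 76.3 TPM in week 72 high replicate 1, and without that library its difference was -3.00 with adjusted p = 0.0193, so that 1 member was called. Leaving out week 72 high replicate 3 gave 4 lower members in place of 2. In low layers 3 members were higher and 1 lower, against 1.93% and 6.60% of all genes. LOXL3 was higher by 0.995 ± 0.20 with adjusted p = 0.0669, the smallest of any member in the 10 comparisons. LOX was higher by 1.27 ± 0.43 (0.353) and RELN by 0.61 ± 0.22 (0.373), whereas NID1 differed by -1.99 ± 0.60 (0.253). LOXL3 passed after median-ratio scaling (adjusted p = 0.0362) and without week 50 high replicate 4 (0.0392), a library that is not in the comparison but shares the estimate of spread. The lower count of 1 was 2 without week 50 low replicate 3 and 3 without week 72 low replicate 4. Markers of other cells differed too, beside 66.4% of all genes below 0 in high and 63.4% in low layers. In low layers summed endothelial markers were 107.5 to 163.0 TPM at week 50 and 163.2 to 189 TPM at week 72, with 1 of 12 below 0. T or NK cell markers lay below 0 in 6 of 6 in both laying classes (median -0.98 in high and -0.80 in low layers), and erythroid markers in 0 of 4 (1.64 and 0.67). In high layers summed erythroid markers were 192 to 291 TPM at week 50 and 665 to 947 TPM at week 72, without overlap, and 5 of 12 endothelial markers lay below 0. The part of these markers in the result was not tested.

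Fibrillar collagens varied together from library to library, whereas of their pairs with crosslinkers only some of those with LOXL2 did. Over 20 libraries COL1A1 and COL1A2 correlated with Pearson r = 0.95 and Spearman rho = 0.87 on log2(TPM + 1), with permutation p = 1e-05, the smallest that 100000 resamples can give, and an adjusted p = 4e-05 over 12 pairs. COL1A1 and COL3A1 gave r = 0.86 and rho = 0.76 (adjusted permutation p = 4e-05 and 0.0008), and COL1A1 and COL6A3 r = 0.81 and rho = 0.67 (0.00015 and 0.00432). COL1A1 and COL5A2 gave r = 0.61 and rho = 0.56 (0.00747 and 0.0205). Without week 32 replicate 2 and week 72 high replicate 3, the libraries farthest from the COL1A1 median, r was 0.90, 0.76, 0.64 and 0.41 for COL1A2, COL3A1, COL6A3 and COL5A2. Deviations from the group means gave r = 0.95, 0.86, 0.79 and 0.56. All genes of a library share its sequencing and scaling, and TPM values are relative to all transcripts of that library.

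The basement membrane and the crosslinkers showed other patterns. COL4A1 and COL4A2 correlated with r = 0.89 and rho = 0.87 (adjusted permutation p = 4e-05 and 6e-05), and with r = 0.81 without week 72 high replicate 2 and week 32 replicate 4. COL4A1 and PDGFRB gave r = 0.74 and rho = 0.72 (0.000768 and 0.00156), and r = 0.56 without the same 2 libraries. For deviations from the group means their r was 0.596. COL1A1 and COL4A1 gave r = 0.64 and rho = 0.53 (0.00416 and 0.0259), and r = 0.54 without 2 libraries. COL4A1 and LAMC1, which share a membrane, gave r = 0.04 and rho = 0.12 (0.858 and 0.673). COL1A1 and LOX gave r = 0.18 and rho = 0.21 (0.502 and 0.446), COL1A1 and DCN r = 0.21 and rho = 0.05 (0.465 and 0.841), and COL1A1 and ACTA2 r = 0.45 and rho = 0.43 (0.0661 and 0.0755). ACTA2 and TAGLN gave r = 0.60 and rho = 0.63 (0.00771 and 0.00726), and r = 0.53 without week 72 low replicate 2 and week 72 high replicate 4.

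Over all 630 pairs of the 36 members the median r was 0.29, and 136 pairs passed an adjusted permutation p under 0.05. The permutations ignored the groups, so group differences enter these values. The share of passing pairs among all tested genes was not counted, so the counts are not set against other genes. For deviations from the group means the median r was 0.22 over all pairs and 0.78 within fibrillar collagens. Between fibrillar and microfibrillar or fibril-associated collagens it was 0.69. With basement membrane genes it was 0.28 and with crosslinkers 0.24. All 10 pairs of fibrillar collagens passed, with r from 0.61 to 0.95. Of pairs between a fibrillar and a microfibrillar or fibril-associated collagen 18 of 25 passed (median r = 0.71), of those with a basement membrane gene 12 of 35 (0.41) and of those with a crosslinker 4 of 20 (0.19). These 4 were all pairs of LOXL2, with COL1A2, COL3A1, COL5A1 and COL5A2 (r = 0.58, 0.58, 0.73 and 0.59). By Spearman rho only the LOXL2 pair with COL5A1 passed (adjusted permutation p = 0.0167). Within the basement membrane 5 of 21 pairs passed (median r = 0.31), and among the 4 crosslinkers 0 of 6 pairs (-0.13). Some pairs were chosen after their values were seen, with p adjusted over 630. COL1A1 and SPARC gave r = 0.84 and rho = 0.93 (adjusted permutation p = 0.000394 and 0.0009), and TGFB3 and DES r = 0.88 and rho = 0.87 (the same values). COL6A1 and COL6A3 gave r = 0.86 and rho = 0.81, but COL6A1 and COL6A2 gave r = 0.19 and rho = 0.22 (0.62 and 0.591). NID1 and NID2 gave r = -0.01 and rho = -0.15 (0.98 and 0.737).

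**Figure D5:**
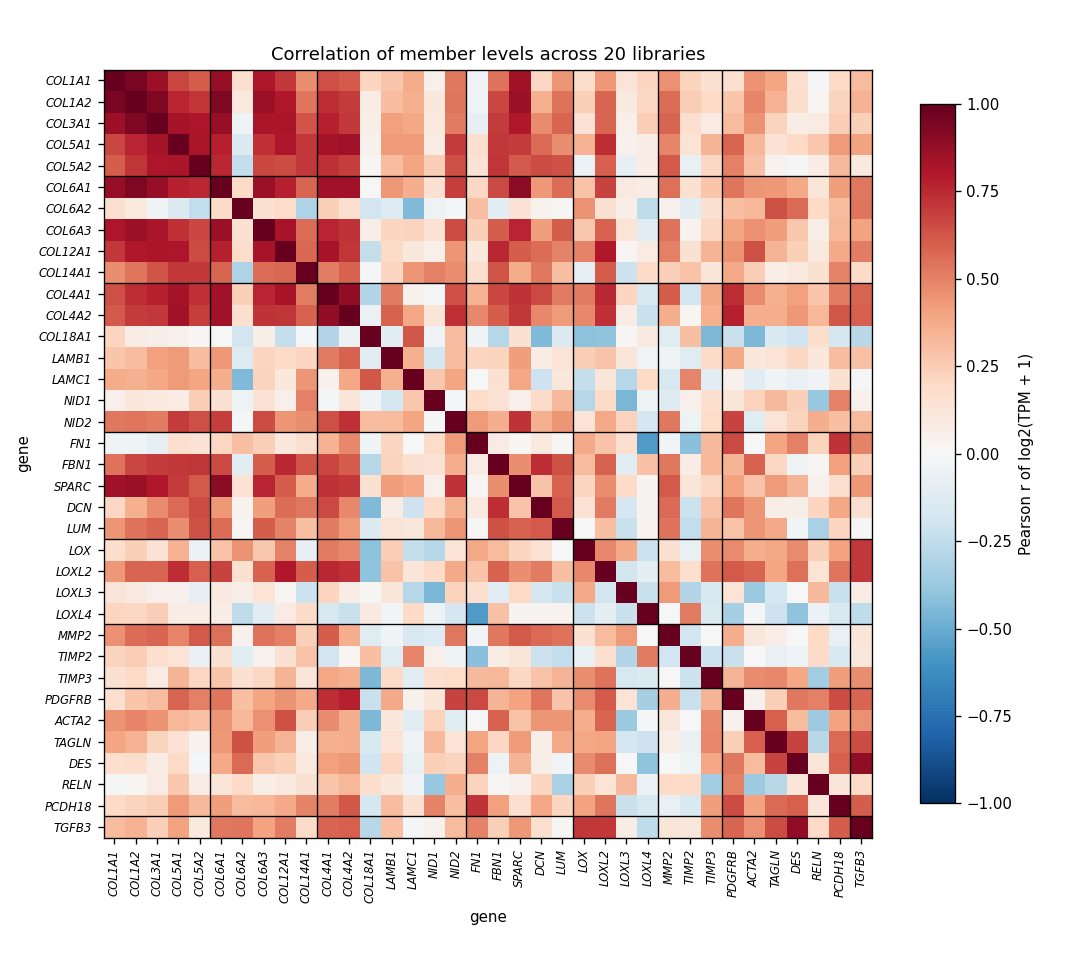
Pearson correlation of log2(TPM + 1) across 20 libraries (colour, from -1 to 1) for each pair of 36 tested members (both axes), grouped by role between black lines. The fibrillar collagens form a block with r from 0.61 to 0.95, and the 4 crosslinkers have a median r of -0.13 among themselves.

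Genes with the pattern most like each leading member were ranked by Pearson r over the 20 libraries among 12808 tested genes, as a description with no test. For COL1A1 they were COL1A2 (0.95), COL6A1 (0.87), COL3A1 (0.86), SPARC (0.84) and DPT (0.83), the dermatopontin gene. COL4A1 was most like COL4A2 (0.89), RASL11AL (0.84), ADAMTS2 (0.84), COL6A1 (0.84) and PRSS23 (0.83). LOX was most like WWTR1 (0.88), MIR1575 (0.84), EGLN3 (0.81), P4HA1 (0.81) and PPP1R27 (0.79), with no member among the 5. PCDH18 was most like BMP10 (0.73), FN1 (0.73), RSPO3 (0.72), EDNRB (0.71) and KCNK4 (0.70). Over all genes the median r was 0.09 with COL1A1, 0.05 with COL4A1, -0.09 with LOX and -0.00306 with PCDH18.

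Other genes of the same pathways were taken from 4 further lists. Limma called 0 of them in any comparison. For P3H3, ADAMTS2, SMAD3 and TNC only 2 of the 5 groups are given by value, which for P3H3 and ADAMTS2 are the highest and lowest means. In collagen folding and processing 18 of 24 listed genes were tested and 2 had an unadjusted p under 0.05 over the 5 groups. P3H3, a prolyl hydroxylase family member, had 4.71 ± 2.45 TPM at week 32 and 8.74 ± 1.86 TPM in week 72 high layers (adjusted p = 0.447), and ADAMTS2, which trims procollagen, 1.54 ± 0.335 and 0.664 ± 0.286 TPM (0.543). TMEM38B, a channel of the endoplasmic reticulum, had an adjusted p = 0.564. In the TGF beta pathway 17 of 23 were tested and 1, SMAD3, was under 0.05, with 20.4 ± 3.51 TPM in week 50 high and 13.5 ± 1.93 TPM in week 50 low layers (0.543). TGFB1 and SKIL had adjusted p = 0.627 and 0.674.

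Among 21 tested of 35 further matrix genes 1 was under 0.05, TNC, the matricellular tenascin C, with 5.64 ± 2.68 TPM at week 32 and 2.50 ± 0.0465 TPM in week 72 low layers (adjusted p = 0.557). COL27A1 and ECM1 had adjusted p = 0.614 and 0.631. Of 19 matrix proteases and inhibitors 15 were tested and 3 were under 0.05. MMP7, a secreted metalloproteinase, had 4.34 ± 3.12 TPM at week 32 and 0.833 ± 0.491 TPM in week 72 low layers (0.338). PLAU, the urokinase that makes plasmin, had 10.5 ± 4.30 TPM at week 32, 31.3 ± 19.03 and 14.2 ± 6.73 TPM in week 50 high and low layers, and 22.43 ± 15.28 and 24.15 ± 3.156 TPM in week 72 high and low layers (0.512). ADAM12 had 1.39 ± 0.488 TPM at week 32, 0.618 ± 0.261 and 1.28 ± 0.495 TPM in week 50 high and low layers, and 0.730 ± 0.0975 and 0.787 ± 0.223 TPM in week 72 high and low layers (0.532). Over the 5 groups the 4 lists thus had 2 of 18, 1 of 17, 1 of 21 and 3 of 15 tested genes under 0.05, beside 8.88% of all genes.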

How the data were processed

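The authors deposited a table of TPM for 21749 genes in 20 liver libraries. Enrichment for mRNA is given by the labels' protocols. The submitters' processing notes name the build GRCg7b. Aligner, counting tool, strand setting and filters are not stated in the sources used here. Since TPM keeps no depth, counting error is unknown and no count model was used. Positions of all 41 members came from RefSeq's gene table for GRCg7b.

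The 12808 genes that reached 1 TPM in 4 or more libraries were fitted on log2(TPM + 1), a scale that understates changes of low genes, with a mean per group in limma 3.58.1 (R 4.3.3, mean-variance trend, 15 residual degrees of freedom). P-values were two-sided, adjusted over all genes by the Benjamini-Hochberg method and called under 0.05. The fit was tested on simulated data. Correlations used 100000 permutations (numpy 2.4.6, with ranks from scipy 1.17.1). Alternatives were a pseudocount of 0.1, a filter of 5 TPM or none, median-ratio scaling, library weights, a replicate block, only the groups compared, and leaving out single libraries. Leaving out the 3 libraries least like the others was added after the data were seen.

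Members, lists and roles were chosen with earlier results of these data known. The rule for names took each member by its group levels, 10 members by each library, those with an unadjusted p under 0.05 (at most 6 by value in a comparison), and the 3 genes of smallest p in each further list. LOXL3, NID1 and PCDH18 were added by library after their values were seen. Sequences were not analysed here.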

Additional observations from a re-analysis of the deposited data

Results flagged for a closer look

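In 15 of 180 combinations of a tested member and a group of 4, the highest or lowest library lay far from the other 3: the gap to the nearest, divided by the range of the group, exceeded the 95% critical value of Dixon's test for 4 values. Gap and range were taken in TPM, not on log2(TPM + 1) as in the limma tests, and the flags were not recounted on that scale. Chance flags about 1 in 20 such groups if their values are normally distributed, which was not tested for TPM. The 15 flags are therefore not set against that rate. The libraries are shared between genes. No explanation was weighed.

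Week 32 replicate 2 was the library concerned for 4 collagen genes. It had 12.03 TPM of COL1A1, 15.58 TPM of COL1A2, 24.89 TPM of COL3A1 and 4.161 TPM of COL6A3, and the other 3 libraries reached at most 4.27, 7.413, 11.63 and 1.944 TPM. COL1A1 was also far above the rest in week 72 high replicate 3, at 11.22 TPM against at most 2.277 TPM, and COL3A1 in week 72 low replicate 3, at 16.21 TPM against at most 5.39 TPM. COL5A2 was at 5.469 TPM in week 50 low replicate 1, and the other 3 had at most 3.593 TPM.

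NID1 was at 76.27 TPM in week 72 high replicate 1 and at 25.93 TPM in week 72 low replicate 1, with at most 8.571 and 9.353 TPM in the other libraries of those groups. DCN was low in week 72 high replicate 2, at 34.51 TPM against at least 88.78 TPM. TAGLN was high in week 32 replicate 4, at 17.0 TPM, and low in week 50 high replicate 4, at 5.381 TPM, where the others had at least 10.27 TPM.

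Further single libraries were high for 3 genes. RELN was at 6.709 TPM in week 32 replicate 1, TGFB3 at 7.695 TPM in week 50 high replicate 1 and TIMP2 at 1064 TPM in week 32 replicate 3, with at most 5.436, 6.656 and 680.2 TPM in the other libraries of each group.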

How the results depend on the processing

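Among the members given by value with an unadjusted p under 0.05, and not those given by name alone, no difference changed sign in the alternatives run. The fibrillar median for week 72 high minus low did, from -0.308 to 0.2462, and members below 0 in that comparison ran from 15 to 33 of 36 when single libraries were left out. Over the 10 comparisons the number of members called was 0 in 274 of 279 combinations of a comparison and an alternative fit, and 1 in 5. Over the 5 groups it was 1 with library weights (PCDH18, adjusted p = 0.0397) and ranged from 0 to 1 when single libraries were left out, the 1 being NID1 without week 72 high replicate 1 (adjusted p = 0.0406). Week 72 against week 50 gave 0 to 1 in high layers when single libraries were left out (NID1 at -3.003 without week 72 high replicate 1), and in low layers 1 after median-ratio scaling (LOXL3 at 1.075) and 0 to 1 when single libraries were left out (LOXL3 at 0.995 without week 50 high replicate 4). The median of the crosslinkers moved with the filter of 5 TPM, which leaves LOX alone: it was -1.494 for week 72 high minus low, -1.393 for the change of the laying difference, -1.284, -1.182 and -1.402 for week 50 high, week 50 low and week 72 high against week 32, and 1.274 for week 72 against week 50 in low layers. A pseudocount of 0.1 moved it to -0.7941 for week 50 high against week 32. Of 756 alternative class medians the other 749 moved by less than the spread between libraries.

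With the replicate number as a block, 0 members were called in each of the 10 comparisons, the smallest adjusted p being 0.1. Libraries of the same number did not all correlate over 0.1 (14 of 40 such pairs, against 19 of 120 pairs of other numbers), so the numbers were not taken to pair the libraries. This rule would miss a weaker link between libraries of the same number. The 40 pairs had correlations of deviations from -0.27 to 0.28 (median 0.0277), and the 120 others from -0.305 to 0.359 (median -0.0097). TPM gives no depth, so the error of members below 1 TPM cannot be told from counting.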

Other observations

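Genes that lie next to NID1 on chromosome 3 did not share its spread between libraries. NID1 ranged over 14.8-fold from its lowest to its highest library. ERO1B and GPR137B on one side ranged over 3.21-fold and 3.08-fold, and LYST and B3GALNT2 on the other over 2.22-fold and 1.82-fold. Their Pearson r with NID1 over 20 libraries lay between -0.32 and 0.26. The genes most like NID1 were SPRY4 (0.71), RPN2 (0.71), LOC107053316 (0.70), SPON2 (0.66) and OSBP (0.64).

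Group levels are given for 3 of the genes most like LOX, chosen after their values were seen. WWTR1 encodes the coactivator TAZ, EGLN3 an oxygen-dependent prolyl hydroxylase and P4HA1 a collagen prolyl hydroxylase. MIR1575 (r = 0.84) and PPP1R27 (0.79) were also among the genes most like LOX. A link of any of these genes to LOX was not tested. WWTR1 averaged 14.0 ± 4.93 TPM at week 32, 9.59 ± 1.999 and 9.99 ± 2.82 TPM in week 50 high and low layers, and 8.60 ± 0.807 and 15.2 ± 5.73 TPM in week 72 high and low layers (SD, n = 4). P4HA1 averaged 28.3 ± 12.1 TPM at week 32 and 21.6 ± 2.49 and 44.6 ± 23.7 TPM in week 72 high and low layers, and EGLN3 112 ± 37.4, 61.2 ± 18.8 and 82.8 ± 27.5 TPM.

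COL6A2 was most like ACTA1 (0.75), a muscle actin gene. LOXL3 was most like FABP5 (0.78), MECOM (0.78), ECSCR (0.74), GRIA1 (0.73) and EMCN (0.71). These are descriptions over 20 libraries, with no test.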
